A study of Arabidopsis thaliana with 11 samples.

Results

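In 5 nuclear tRNAs of *Arabidopsis thaliana* with a short variable loop, the authors' tables list a single 5-methylcytosine (m5C) site, at structural position 48. They are Lys(CTT), Lys(TTT), Thr(CGT), Ile(AAT) and Arg(TCG), and they make up 5 of the 24 tRNAs with any listed site and 5 of the 16 with a listed C48. They were chosen by that listing, which rests on the wild type levels, so the wild type levels of C48 are given as a description. Gln(TTG), with a variable loop of 4 bases, also has C48 as its single listed site but was not among the 5. What the 5 share is therefore not a trait of every short-loop tRNA with C48 alone. The question asked of them was which keep C48 when the RNA methyltransferase TRM4B is missing.

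m5C was read by RNA bisulfite sequencing (RBS-seq), in which an unmethylated cytosine is converted and read as T while a methylated one stays C. Gel-purified tRNA came from 9 seedling libraries, taken at 10 days after germination, and 2 libraries of mixed buds. The seedling genotypes were wild type (3 libraries, of which the tables hold only the mean), *trm4a*, *trm4b-1*, *trdmt1*, *trdmt1 trm4b*, *nsun5-2* and *nop2a-2*, also named *oli2-2* (1 library each). The double mutant carries the *trdmt1* and *trm4b-1* alleles. The bud genotypes were wild type and *trm4b-2* (1 library each), so that allele, tissue and experiment changed together. All plants were of the Columbia ecotype, the mutants were T-DNA insertion lines, and RNA came from whole seedlings or buds. The tables hold tRNA sites alone, so neither tissue markers nor the transcripts of the mutated genes could be checked.

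Each value is the percentage of reads with C at the cytosine, and N.D. (not determined) marks a cell without a value. Each column had a value at 27 to 39 of the 39 listed sites. Reads per site were not in these tables, so the depth behind a percentage was unknown and no interval could be given. With 1 library per mutant and no spread for the wild type mean, the replicate error of a difference between genotypes is unknown, and none was tested. As a check of the labels on other tRNAs, the C50 sites were at 0% or 1% in *trm4b-1*, *trdmt1 trm4b* and *trm4b-2*, and the C38 sites at 0% or 1% in *trdmt1* and *trdmt1 trm4b*.

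Position 48 is the last base of the variable loop, next to the T stem. In the folded tRNA it commonly pairs across the molecule with base 15 and so helps to hold the L shape together. TRM4 in yeast and its mammalian relative NSUN2 methylate tRNA cytosines around this junction, and TRM4B is their homologue in *A. thaliana*, with TRM4A as its paralogue. TRDMT1 belongs to the DNMT2 family, which methylates C38 in the anticodon loop. Homologues of NSUN5 and NOP2A act on ribosomal RNA. Of the tRNAs described here, Lys(CTT) reads the lysine codon AAG, Lys(TTT) reads AAA, and Thr(CGT) reads the threonine codon ACG. Ile(AAT), after its first anticodon base is changed to inosine, reads most isoleucine codons, and Arg(TCG) reads the arginine codon CGA.

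The consensus sequences to which the reads were aligned show what the 5 tRNAs share around the methylated base. They are written 5′ to 3′ as DNA, with the variable loop and base 49 in capitals, so that C48 is the last capital but 1.
Lys(CTT): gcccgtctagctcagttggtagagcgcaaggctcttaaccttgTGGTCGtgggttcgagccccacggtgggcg
Lys(TTT): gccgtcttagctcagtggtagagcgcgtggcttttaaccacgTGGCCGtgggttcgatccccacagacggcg
Thr(CGT): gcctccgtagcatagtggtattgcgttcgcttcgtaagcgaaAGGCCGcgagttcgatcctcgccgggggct
Ile(AAT): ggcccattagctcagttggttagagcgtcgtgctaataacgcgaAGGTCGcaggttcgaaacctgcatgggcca
Arg(TCG): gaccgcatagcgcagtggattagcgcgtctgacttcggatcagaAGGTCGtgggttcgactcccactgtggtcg

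All 5 have a variable loop of 5 bases, G at position 49, C at its pairing partner 65, and G at position 15. G at 49 means that none of them has a cytosine at C49, where other tRNAs in the tables have listed sites. Lys(TTT) and Thr(CGT) have a second cytosine beside C48, at position 47, and Thr(CGT) and Ile(AAT) have one at position 50. Neither of these neighbours is listed as a site in any of the 5. The sequences hold between 18 and 21 cytosines, of which C48 is the single one listed.

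The other tRNAs with a listed C48 are built differently at this junction. The 7 with a short loop, from the aspartate, glutamine, glutamate and glycine families, all have a loop of 4 bases and C at 49. The 4 leucine and serine tRNAs have a long arm of 14 or 15 bases and, like the 5, G at 49 and C at 65. G at 15 does not set the 5 apart, since 6 of those 7 and all 4 leucine and serine tRNAs have it. Gln(TTG), Gly(GCC) and Ser(GCT) are shown for comparison, with the same bases in capitals.
Gln(TTG): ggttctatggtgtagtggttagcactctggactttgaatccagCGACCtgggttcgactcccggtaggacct
Gly(GCC): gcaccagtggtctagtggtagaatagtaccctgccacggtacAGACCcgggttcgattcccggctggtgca
Ser(GCT): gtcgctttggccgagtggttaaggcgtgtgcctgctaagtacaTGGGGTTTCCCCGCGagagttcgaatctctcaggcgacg

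Among the 58 nuclear consensus sequences, 24 had a loop of 5 bases ending in C48. Of these, 11 had G at 49, and 5 of the 11 had a listed C48, namely the 5 tRNAs described here. The 13 with another base at 49 had no listed C48. Of these, 2 had a listed C49 and the rest had no listed site. Ile(AAT) and Arg(TCG) share the loop AGGTC, which, followed by G at 49, is found in 8 consensus sequences in all. The other 6 have no listed site, among them Ile(TAT), Arg(CCT) and Arg(CCG)1. Whether the tRNAs without a listed site were detected was not analysed here, whatever their base at 49. Neither this letter match nor the counts by base 49 therefore say anything of their methylation.

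The 5 consensus sequences stand for 58 nuclear loci in the authors' list (TAIR10). RefSeq's gene table, used for gene types alone, has all 58 as tRNA genes, and each locus is as long as its consensus. Lys(CTT) and Ile(AAT) have 17 loci each and Lys(TTT) has 13, all 3 spread over the 5 nuclear chromosomes. Arg(TCG) has 6 loci, 4 of them on chromosome 1, and Thr(CGT) has 5, on chromosomes 1, 2 and 5. The first locus listed for each is AT1G01890 for Lys(CTT) (chromosome 1, 309275 to 309347), AT1G79290 for Lys(TTT) (chromosome 1, 29833117 to 29833188), AT1G13720 for Thr(CGT) (chromosome 1, 4709635 to 4709706), AT1G06480 for Ile(AAT) (chromosome 1, 1978084 to 1978157) and AT1G11030 for Arg(TCG) (chromosome 1, 3678775 to 3678848). The closest neighbours were the Lys(TTT) loci AT1G79290 and AT1G79300, with 529 bases between them. A level is a single value for all loci of a tRNA, so loci cannot be compared.

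In wild type seedlings C48 was at 88% in Lys(CTT), 87% in Thr(CGT), 80% in Arg(TCG), 66% in Lys(TTT) and 33% in Ile(AAT). In wild type buds the levels were 90% in Lys(CTT), 91% in Thr(CGT), 81% in Arg(TCG), 73% in Lys(TTT) and 49% in Ile(AAT). In the wild type columns alone, Lys(CTT), Thr(CGT) and Arg(TCG) were highest, Lys(TTT) lay between and Ile(AAT) was lowest. Lys(CTT) and Thr(CGT), 1 point apart in each tissue and in opposite order, did not differ beyond the 12 and 8 points that they spanned over the 6 columns with an intact *TRM4B* gene. Nor could Lys(TTT) be placed below Arg(TCG), since it spanned 66% to 100% over 3 such columns. Ile(AAT) stood below the other 4 in both tissues, by more than its own 16 points between them. The largest difference between the tissues was 16 points, in Ile(AAT), and the median was 4 points, against a median of 3 points over all 39 sites. By the study's methods a site needed 20%, and Ile(AAT) was the member nearest to that limit. tRNAs just below it were not analysed here.

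How often a value was obtained differed among the 5 tRNAs. Lys(CTT) and Thr(CGT) had a value in all 9 columns, Lys(TTT) in 5, Ile(AAT) in 4 and Arg(TCG) in 3. Ile(AAT) and Arg(TCG) had none in *trm4b-1*, *trm4a*, *trdmt1*, *nsun5-2* or *nop2a-2*. What is said of these 2 tRNAs without TRM4B rests on 2 libraries and 1 library.

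**Figure D1:**
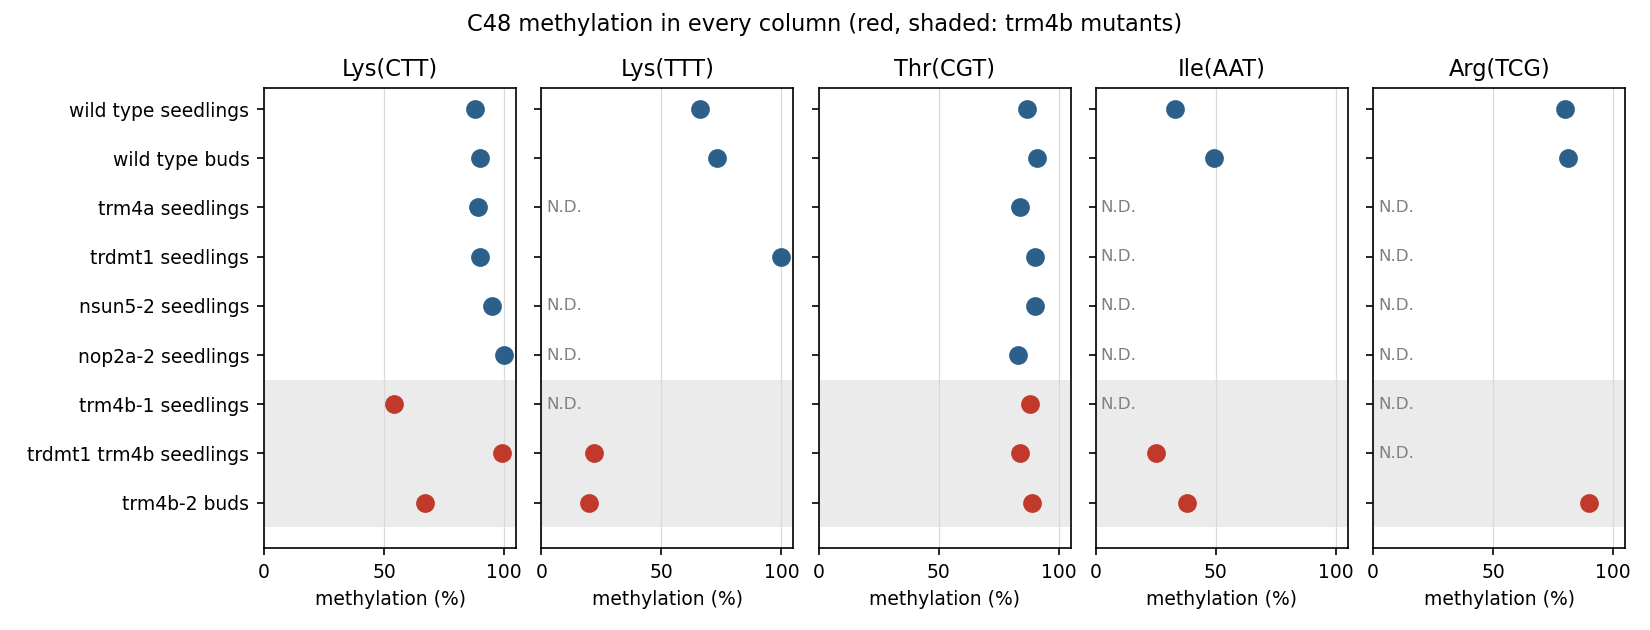
C48 methylation in percent (x axis) in each of the 5 tRNAs (panels) for each column of the tables (y axis). A point is 1 library, except wild type seedlings, which is the authors' mean of 3; N.D. marks no value, and the 3 shaded rows with red points carry a *trm4b* allele. Thr(CGT) stays between 83% and 91% in every row, while Lys(TTT) is at 20% and 22% in its 2 red points.

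The 4 seedling mutants with an intact *TRM4B* gene gave the range over which these levels moved between libraries. Lys(CTT) was at 89% in *trm4a*, 90% in *trdmt1*, 95% in *nsun5-2* and 100% in *nop2a-2*. Thr(CGT) was at 84% in *trm4a*, 90% in *trdmt1*, 90% in *nsun5-2* and 83% in *nop2a-2*. Both stayed within 12 points of the wild type. Lys(TTT) had a value only in *trdmt1*, at 100% against 66% in the wild type, so its range over libraries with *TRM4B* was 34 points.

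To describe differences, sites whose wild type level in the same tissue reached 20% were sorted by what the mutant had left. A mutant level of up to 5% counted as lost. A higher level that was 20 points or more under the wild type counted as reduced, and any other as retained. No C48 of the 5 tRNAs was called lost or reduced in *trm4a* (0 of 2, with 3.33% of all sites called), *trdmt1* (0 of 3, with 13.3%), *nsun5-2* (0 of 2, with 7.41%) or *nop2a-2* (0 of 2, with 0%). With so few sites called in any tRNA, these counts do not set the 5 apart.

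The libraries with a *trm4b* allele were read against this range. Thr(CGT) C48 was at 88% in *trm4b-1*, 84% in *trdmt1 trm4b* and 89% in *trm4b-2*. All 3 values lay inside its range of 83% to 91% over the 6 columns with an intact *TRM4B*, and the differences from the matching wild type were 1, -3 and -2 points. This was the single one of the 5 tRNAs measured in all columns and retained in all 3 libraries.

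Arg(TCG) C48 was at 90% in *trm4b-2* buds, against 81% in wild type buds and 80% in wild type seedlings. It was called retained, in the only library with a *trm4b* allele that gave a value. Ile(AAT) C48 was at 25% in *trdmt1 trm4b*, against 33% in wild type seedlings, and at 38% in *trm4b-2*, against 49% in wild type buds. It was called retained in both, with 75.8% and 77.6% of the wild type level left. Lys(CTT) in *trm4b-2*, called reduced, had a similar share left, 74.4%. A fall of 20 points is a larger share of a low wild type level, so the calls of these 2 tRNAs differ in points more than in share. The *trm4b-2* value of Ile(AAT) lay between its 2 wild type values and its double mutant value below both. Set against wild type buds in place of seedlings, the double mutant differed by -24 points and would be called reduced. With a limit of 10 points in place of 20, the *trm4b-2* value, at -11 points, would be called reduced as well.

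Lys(TTT) C48 was at 22% in *trdmt1 trm4b*, against 66% in wild type seedlings, and at 20% in *trm4b-2*, against 73% in wild type buds. Both were called reduced, with 33.3% and 27.4% of the wild type level left. Both values lay below the 3 values with an intact *TRM4B* (66%, 73% and 100%), and by more than the 34 points that separate those 3. *trm4b-1* seedlings had no value for this tRNA.

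Lys(CTT) C48 was at 54% in *trm4b-1*, against 88% in wild type seedlings, and at 67% in *trm4b-2*, against 90% in wild type buds. Both were called reduced, by 34 and 23 points, and both lay below the range of 88% to 100% over the 6 columns with an intact *TRM4B*. In *trdmt1 trm4b*, which carries the same allele as *trm4b-1*, the level was 99% and was called retained. The 2 lysine tRNAs thus stood far apart in the double mutant, at 99% for Lys(CTT) and 22% for Lys(TTT), and in *trm4b-2*, at 67% and 20%.

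Counted over the 5 tRNAs, 1 of 2 was called lost or reduced in *trm4b-1* (78.1% of all sites), 1 of 4 in *trdmt1 trm4b* (74.3%) and 2 of 5 in *trm4b-2* (62.9%). The calls were all reductions. None was called lost, where 46.9%, 54.3% and 42.9% of all sites were. The levels that remained ran from 54% to 88% in *trm4b-1*, from 22% to 99% in *trdmt1 trm4b* and from 20% to 90% in *trm4b-2*. The median difference from the wild type was -16.5, -5.5 and -11 points, against -52.5, -61 and -51 points over all sites called. In *trdmt1 trm4b* the figures over all sites include 3 C38 sites at 0%, which were also lost in *trdmt1*. Since *trm4b-1* and *trdmt1 trm4b* were set against the same wild type mean, their differences are not independent.

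The other listed C48 sites were lost more often in the same libraries, 7 of 9 in *trm4b-1*, 9 of 11 in *trdmt1 trm4b* and 5 of 7 in *trm4b-2*. Those of the leucine and serine tRNAs, which also have G at 49, were lost in 2 of 2, 4 of 4 and 1 of 1 cases. Among the tRNAs with a loop of 4 bases, 5 of 7, 5 of 7 and 4 of 6 were lost, and the sites that were not belonged to the glutamine tRNAs. Gln(CTG) C48 was at 71% in *trm4b-1*, 88% in *trdmt1 trm4b* and 93% in *trm4b-2*. Gln(TTG) C48 was at 67% in *trm4b-1*, called reduced, 82% in *trdmt1 trm4b* and 84% in *trm4b-2*. These counts describe the libraries. The difference between the 5 tRNAs and the other C48 sites was not tested, since each genotype had 1 library and sites of 1 library are not replicates.

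**Figure D2:**
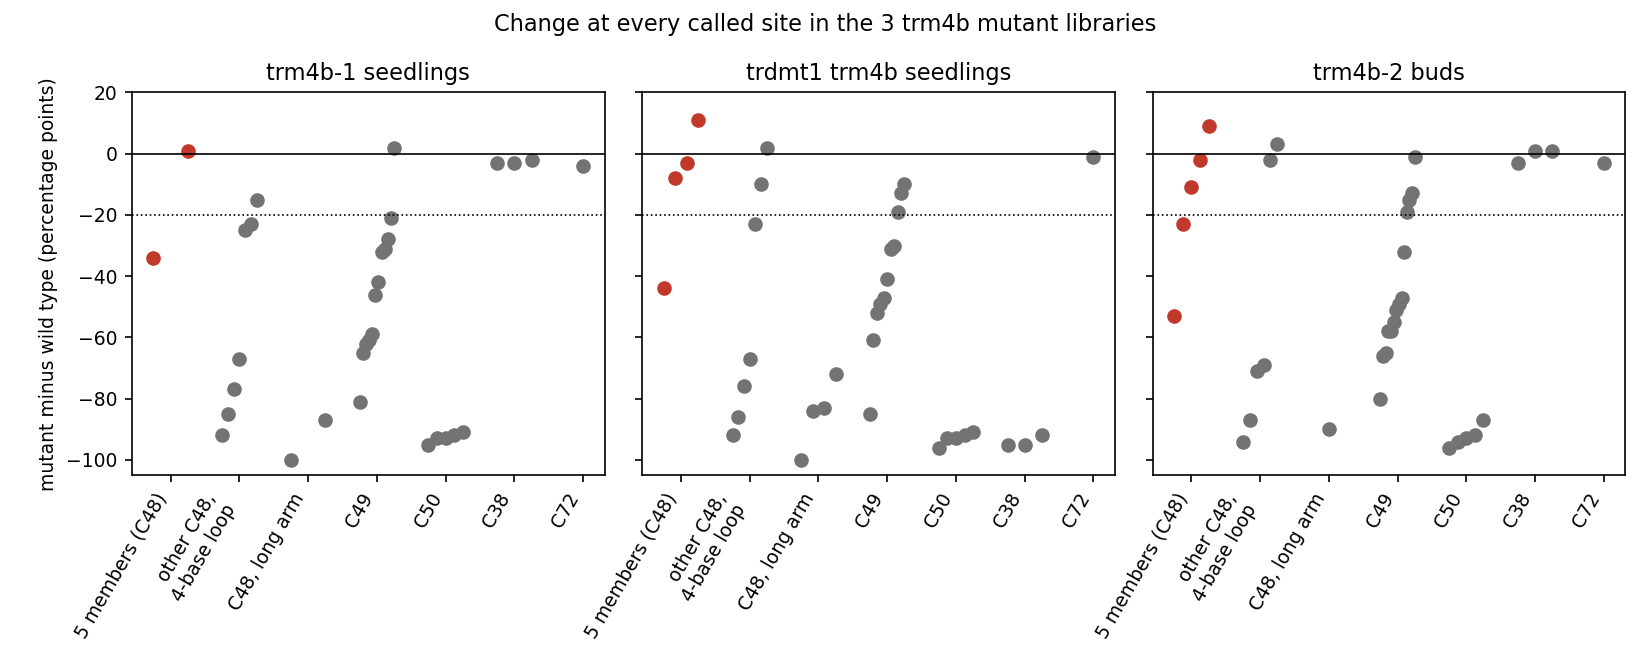
Mutant minus matching wild type in percentage points (y axis) at each called site in the 3 libraries with a *trm4b* allele (panels), with sites grouped by position and by type of variable loop (x axis) and ordered by value within a group. Each point is 1 site in 1 library; the dotted line is the limit of -20 points, and the red points of the 5 tRNAs lie between -53 and 11 points while the C50 sites lie between -96 and -87.

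The *trm4b-1* allele could also be followed in a second background, by setting *trdmt1 trm4b* against *trdmt1*. This comparison was chosen after the values were seen. In that background Lys(CTT) C48 went from 90% to 99%, Thr(CGT) C48 from 90% to 84% and Lys(TTT) C48 from 100% to 22%. Lys(TTT) was thus lower with the *trm4b-1* allele in the *trdmt1* background, by 78 points, while Thr(CGT) differed by less than the 8 points it spanned over libraries with *TRM4B*. For Lys(CTT) the difference was -34 points in the wild type background and 9 points in the *trdmt1* background. The 9 points were fewer than the 12 that this site spanned over the columns with an intact *TRM4B* gene, so they show no rise. The 2 differences lie 43 points apart, the largest such gap among the 25 sites at C48, C49 and C50 measured in all 4 columns. Over those sites the median size of the gap was 4 points, but many were near 0% in both libraries with the allele, which leaves little room for a gap. Over the 12 sites above 5% in at least 1 of these libraries the median was 11 points, the gap was positive in 10, and the 11 sites other than Lys(CTT) C48 ranged from -7 to 27 points. Lys(CTT) C48 was 1 of 3 sites whose differences had opposite signs, beside Thr(CGT) C48 and Gln(CTG) C48, the latter with -15 and 2 points. The gap was not tested, as each library stands alone.

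**Figure D3:**
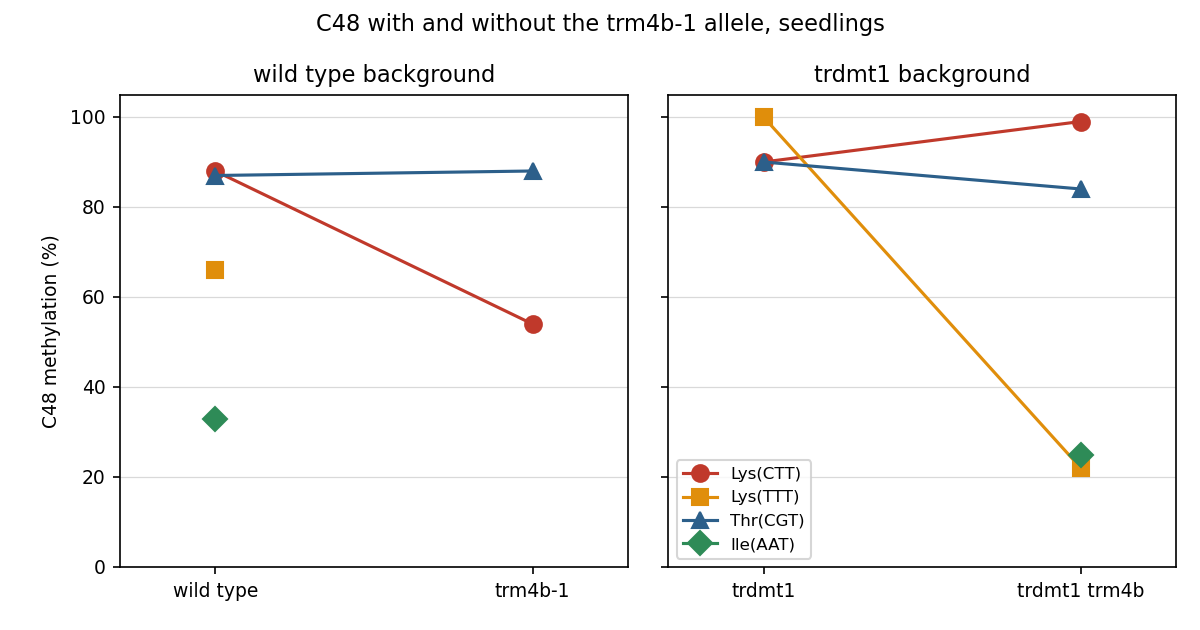
C48 methylation in percent (y axis) in seedlings without and with the *trm4b-1* allele (x axis), in the wild type background (left) and the *trdmt1* background (right). Each point is 1 library, except wild type, the authors' mean of 3; unjoined points have no value in the paired library. Lys(CTT) runs from 88% to 54% on the left and from 90% to 99% on the right, while Lys(TTT) on the right runs from 100% to 22%.

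Reads of the 2 lysine tRNAs were assigned by sequence after conversion, which makes references more alike. As listed, Lys(CTT) and Lys(TTT) differed by 13 edits, and with each C replaced by T by 10. Each was the other's nearest reference. Replacing C by T left the remaining 3 tRNAs 11 (Arg(TCG)), 13 (Ile(AAT)) and 14 (Thr(CGT)) edits from their nearest references. Whether reads were shared between the 2 lysine references was not tested.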

How the data were processed

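The authors deposited percent methylation, in whole percents, as the share of reads at a cytosine that kept C among those with C or T. Reads had been trimmed, filtered and aligned in CLC Genomics Workbench, whose version was not given in the sources used here. The targets were consensus tRNAs with each C replaced by T. The authors made these 100 consensus sequences by collapsing similar tRNAs of TAIR10, the build in the submitters' processing notes, so differences among loci of a family are hidden. Their methods required at least 5 reads, and a cell without a value is taken here as falling short of that. Bisulfite resistance is not specific to m5C, and the files cannot tell the modifications apart.

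The members, lists and limits were chosen with earlier results of these data known. The 5 tRNAs were named in full, with the value in every library, and other tRNAs only where they had a listed C48 retained in a library with a *trm4b* allele, shared an amino acid with the 5, or were shown for their sequence. Each column was given its genotype by its name, which left 0 unmatched. Positions after the anticodon were counted back from the last base, position 73, and the variable loop was measured from the anticodon stem. No test was made, as each mutant had 1 library. Edit distances were computed with edlib 1.3.9.post1, and other values with Python 3.11.15, pandas 2.3.3 and matplotlib 3.10.9. Alternatives were other limits for a fall, a ratio, the wild type minimum and the lost level, other reference columns and 2 chosen once the values were known, namely the *trdmt1* reference and the fully measured tRNAs alone.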

Additional observations from a re-analysis of the deposited data

Results flagged for a closer look

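With the *trm4b-1* allele, the differences of Lys(CTT) C48 had opposite signs in the 2 seedling backgrounds. They were -34 points in the wild type and 9 points in *trdmt1*, a difference of 43 points. The 9 points were fewer than the 12 that this site spanned over the columns with an intact *TRM4B* gene, so they show no rise. Signs were opposite in Thr(CGT) C48 too, by much less, with 1 point in the wild type and -6 points in *trdmt1*, a difference of -7 points. Thr(CGT) C48 also had opposite signs in the 2 alleles, with 1 point for *trm4b-1* in seedlings and -2 points for *trm4b-2* in buds, a difference of -3 points. None of these differences was tested, because every effect rests on 1 mutant library, and the depth is unknown. Both Thr(CGT) differences were smaller than the 8 points that this site spanned over the columns with an intact *TRM4B* gene. The Lys(CTT) difference of 43 points was larger than the 12 points that site spanned. Each of these is a difference between 2 differences, while a span is taken over single levels. The spans therefore do not measure the error of these differences, and nothing is concluded from their being smaller or larger.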

How the results depend on the processing

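Of 25 other limits or references for the counts of reduced tRNAs, 21 left the count within 1.5 times its value. Several of these could not have moved it. The lowest level of the 5 tRNAs was 20%, so none could become lost with a limit of 10%. A wild type minimum of 40% could leave out only Ile(AAT), which was not among the reduced. With a ratio to the wild type below 0.5 in place of a fall of 20 points, the count was 0 in *trm4b-1* (1 in the report) and 1 in *trm4b-2* (2 in the report), as Lys(CTT) kept 61.4% and 74.4% of its wild type level. With a fall of 30 points the count in *trm4b-2* was 1, again without Lys(CTT). With a fall of 10 points it was 3, with Ile(AAT) C48 added at -11 points, a change that still falls among the 21. With wild type buds as the reference, *trdmt1 trm4b* had 2 in place of 1, the second being Ile(AAT) C48 at -24 points. Of the 4 alternatives added after the data were seen, the *trdmt1* reference left the count in *trdmt1 trm4b* at 1. Keeping only Lys(CTT) and Thr(CGT), which had a value in every column, left it at 1 in *trm4b-1* and gave 0 in *trdmt1 trm4b* and 1 in *trm4b-2*, since Lys(TTT) was left out. Both reductions of Lys(TTT) thus kept their call under every limit and reference tried, while that of Lys(CTT) was lost under the ratio in both libraries and under the fall of 30 points in *trm4b-2*. No paired analysis was possible because each mutant had 1 library and the wild type seedling libraries were deposited only as their mean, which also prevents leaving out a replicate. The depth of each site was unknown.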
